A study of Mus musculus with 4 samples.

Results

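Type I interferon stimulated genes were described in cultured mouse aortic smooth muscle cells, with and without LDL, in a wild-type (WT) line and in a line without LAMP-2A (L2AKO). The members were a list of 41 genes, and every array probe whose RefSeq accession belongs to one of them was taken, whatever its value. The list itself was chosen with earlier results of these data known. Counts of members beside shares of all genes are therefore a description only. Of the 41 genes, 39 had at least 1 probe, with 51 probes in all, out of 21367 genes named on the array. No probe was matched to Mx1 or Mx2, which encode dynamin-like antiviral GTPases.

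The arrays were 1-colour Agilent mouse arrays, and each of the 4 groups had 1 array. WT control cells carried no deletion and were kept for 24 h in DMEM with 5% lipoprotein-deficient serum, and WT LDL cells received LDL at 150 µg/ml cholesterol and lipoprotein lipase at 0.1 U/ml in that medium. L2AKO control and L2AKO LDL cells were treated in the same ways and lacked LAMP-2A, the lysosomal membrane receptor of chaperone-mediated autophagy. All cells were of the strain C57BL/6J and of passages 12 to 16, and each array received RNA that combined a triplicate. The labels do not say if lipase was also added to control cells.

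Interferon alpha and beta bind a shared receptor, and the kinases Jak1 and Tyk2 then pass the signal on. Stat2 and Irf9 belong to a complex that binds the interferon-stimulated response element (ISRE) in promoters and switches on genes that hinder viruses. Many cells keep these genes at a low tonic level without infection, and several products, such as Usp18, hold the pathway back.

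Values are log2 of the processed spot signal minus the array's 75th percentile, so that 0 is the 75th percentile of an array, and a difference of 1 is 2-fold. Levels of different probes cannot be set against each other. A single array per group leaves the biological spread unknown, and no test was run. A gene is called higher or lower at 2-fold, beside the share of all measured genes past that fold. The one error that could be measured was the SD of repeated spots on an array, which gives 0.0758 log2 units for a difference of single spots and covers technical spread only. WT control, WT LDL and L2AKO control shared slide 1, and L2AKO LDL was on slide 2. Comparisons that use it therefore also compare slides, and what belongs to the slide cannot be told apart from what belongs to the group. In such bulk RNA, fewer expressing cells and less RNA per cell cannot be told apart either.

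The arrays had 47.2% to 52.0% of probes well above background and no saturated spot. Between 6 and 7 of 10 smooth muscle markers were above background, among them Acta2 and Tagln, whereas Myh11, Lmod1 and Des were not on any array. Of the markers of other cells, the leukocyte gene Ptprc, the macrophage gene Adgre1, the lymphocyte genes Cd8a and Cd79a and the endothelial genes Cdh5, Tek and Cldn5 were not above background on any array. Others were, with 6 to 7 of 10 macrophage and dendritic markers (Itgam and Csf1r among them). So were 3 of 7 lymphocyte and NK cell markers (Cd3e and Nkg7 among them). Of 7 endothelial markers 3 to 4 were, Kdr and Vwf among them. Of 6 fibroblast markers, 5 were above background on every array (Pdgfra, Dcn, Lum, Pi16 and Col1a1), and Dpt was on L2AKO LDL only. One of 2 Lamp2 probes was lower in L2AKO, with log2 differences of -1.38 without and -1.32 with LDL, and the other differed by 0.04 and -0.29. Neither the labels nor the file headers place them relative to the deleted part.

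The promoters of members are shown first, because the complex of Stat2 and Irf9 binds the ISRE in promoters of interferon stimulated genes. Binding at the members was not measured here. RefSeq promoters (GRCm38.p6, 250 bases before to 50 after a transcription start) were found for 34 of the 41 members. The ISRE core was searched on both strands as GAAA, any 2 bases and GAAA again. It was found for 10 of the 34 members, against 3.99% of 27025 genes in the promoter table. Stretches that lie before the start are printed 5′ to 3′ on the strand of the gene, with each match in capitals. Overlapping matches run together, as in Isg15, whose 3 matches share bases.

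The members shown are Stat2, which is part of the pathway itself, the 6 whose match lies before the start among effector genes, and Trim30a.
Stat2, chr10:128270251-128270310, + strand: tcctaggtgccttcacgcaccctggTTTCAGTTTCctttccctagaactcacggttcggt
Isg15, chr4:156200850-156200921, - strand: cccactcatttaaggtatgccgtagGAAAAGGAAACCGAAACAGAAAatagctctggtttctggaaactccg
Ifit1, chr19:34640760-34640838, + strand: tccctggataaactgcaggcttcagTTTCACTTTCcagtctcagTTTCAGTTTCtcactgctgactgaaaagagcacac
Ifit3, chr19:34583348-34583441, + strand: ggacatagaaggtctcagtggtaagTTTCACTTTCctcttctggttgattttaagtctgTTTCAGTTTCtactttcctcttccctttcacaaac
Ddx60, chr8:61928009-61928086, + strand: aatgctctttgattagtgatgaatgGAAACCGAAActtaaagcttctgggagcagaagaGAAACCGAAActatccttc
Bst2, chr8:71537562-71537627, - strand: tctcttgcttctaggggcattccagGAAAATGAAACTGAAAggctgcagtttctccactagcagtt
Rsad2, chr12:26456538-26456597, - strand: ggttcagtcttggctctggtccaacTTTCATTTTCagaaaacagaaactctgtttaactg
Trim30a, chr7:104465195-104465254, - strand: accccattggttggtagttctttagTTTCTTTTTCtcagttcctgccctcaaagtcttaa

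In Isg15 the first match began 78 bases before the start, and in Ifit1 the matches began 104 and 85 bases before it. Ifit3, which lies on the same chromosome as Ifit1, held the same 2 matches in the same order, at 156 and 122 bases. Ddx60 held the same match at 53 and 19 bases, and Stat2 held 1 match at 222 bases. In Trim21 and Ifitm3 the matches lay after the start. A second motif, the gamma-activated site TTCNNNGAA, which reads alike on both strands, was found for 7 members (20.6%) against 9.55% of genes, and in Bst2 it overlapped the first ISRE core. In the other 24 members the letters of the ISRE core were not in this window, which says nothing about other places in the gene.

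**Figure D1:**
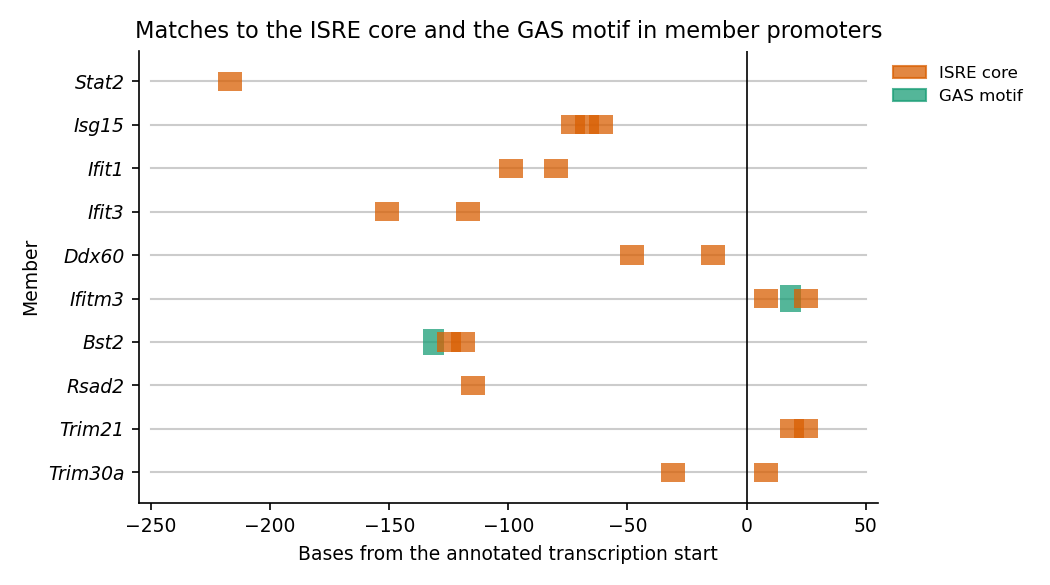
Positions of the ISRE core (orange) and the gamma-activated site (green) in the promoters of the 10 members with an ISRE core, in bases from the annotated transcription start (vertical line). Matches of different starts of a gene are drawn on 1 line, as for Trim30a, and 8 of the 10 members hold a match before a start.

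The first comparison asked what LDL did to these genes in WT cells. Interferon stimulated genes were lower with LDL, by 10.3-fold for Usp18, 10.0-fold for Rtp4 and 9.31-fold for Isg15. Of 33 members above background on both arrays, 13 were at least 2-fold lower and 0 were at least 2-fold higher, while 1.02% of 12977 genes were lower and 0.247% higher. Their median log2 difference was -0.83, against -0.05 over all genes, and 31 of 33 lay below 0, as did 60.7% of all genes. At 1.5-fold, 18 members were lower and 0 higher, against 2.46% and 1.25% of genes. Usp18, Rtp4 and Isg15 ranked 4, 5 and 6 from the lowest of the 12977 genes. With normexp, another background correction, the log2 response of Usp18 was -2.39 in place of -3.36, that of Irf7 -1.07 in place of -2.09, that of Slfn2 -1.01 in place of -2.15 and that of Cmpk2 -0.51 in place of -1.46.

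The second comparison set LDL against control in L2AKO cells, on arrays of different slides. Members were lower there too, but by less, with 4 of 35 at least 2-fold lower and 0 at least 2-fold higher, against 1.33% and 0.93% of 13008 genes. At 1.5-fold 12 were lower and 0 higher, against 4.55% and 3.34%, and 30 of 35 lay below 0, against 62.2% of genes. The 4 past 2-fold were Rtp4 (2.23-fold lower), Slfn2 (2.21-fold lower), Ifit1 (2.11-fold lower) and Isg15 (2.03-fold lower), all close to the 2-fold limit. On the second Isg15 probe the value was 1.49-fold lower. The count of 4 became 3 with the mean over probes, 2 with median scaling and 0 with no scaling. It became 5 of 38 where 1 array above background sufficed. Outside the 35, Epsti1 and Ifi44 were above background on L2AKO control but not on L2AKO LDL. They were at least 8.54-fold and at least 1.79-fold lower with LDL. Ddx60 was above background on L2AKO LDL but not on L2AKO control, and no bound could be set. The median of the 35 was -0.43 against -0.08 over all genes.

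Among the 33 members above background on all 4 arrays, 28 were lower with LDL in both lines, and in 28 the L2AKO response was the smaller in size. Of all measured genes, 60.7% lay below 0 in WT and 62.2% in L2AKO. Shares of all genes matching these counts of 28 are not given here, so the counts describe the members only. For the 13 members at least 2-fold lower in WT, the log2 response of L2AKO was smaller in all 13. The size of the L2AKO response was 26.2% to 73.3% of that in WT, with a median of 38.6%. These 13 were picked by their WT response, and picking extreme values favours a smaller response in the other line. Responses of the lines share no array, and over the 33 members they correlated with r = 0.79 (rho = 0.80). This is a description, without the correlation over all genes beside it. The difference between the responses was at least 2-fold for 9 of 33 members, each with the higher value in L2AKO, against 1.39% of 12491 genes, and 0 members lay 2-fold the other way, against 0.721%. At 1.5-fold these counts were 15 and 0, against 4.77% and 3.99%, and 4 members lay below 0, against 54% of genes. These 9 were Usp18, Isg15, Rtp4, Xaf1, Ifit1, Irf7, Phf11d, Slfn2 and Herc6. With normexp and in the values the authors deposited 6 of them were past 2-fold, without Irf7 (0.67 and 0.80), Slfn2 (0.17 and 0.34) and Herc6 (0.61 and 0.68). Herc6 and Slfn2 were also under 2-fold with no scaling (0.94 and 0.95), and Herc6 with quantile normalisation (0.99) and with the mean over its probes (0.42).

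**Figure D2:**
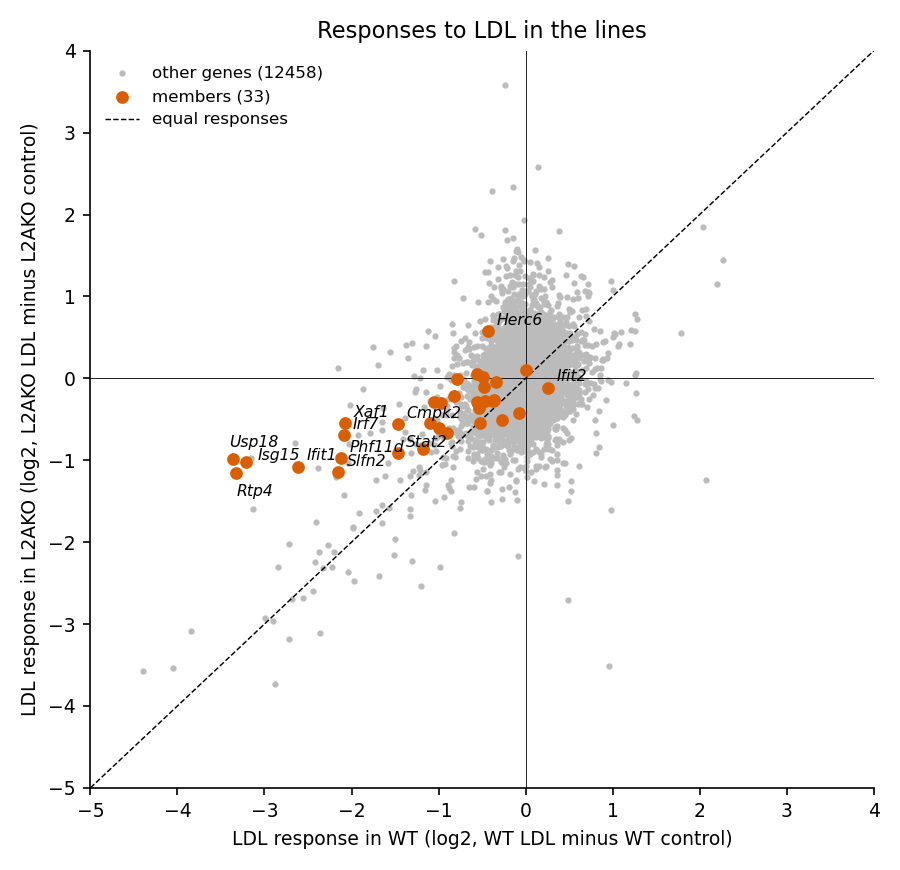
Log2 response to LDL in WT (horizontal) and in L2AKO (vertical) for the 33 members (orange) and other genes (grey) above background on all 4 arrays. The 13 members at least 2-fold lower in WT lie above the dashed line of equal responses, but they were picked by that WT response.

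The WT LDL array was the lowest of the 4 arrays for 25 of 33 members, against 27.4% of 12491 genes, and the highest for 0 members, against 18.3%. L2AKO control was the highest for 17 and WT control for 13 of the 33, against 28.5% and 31.2% of genes. L2AKO LDL was the lowest for 5 members, namely Trim25, Znfx1, Helz2, Isg20 and Ifitm3, against 37.5% of genes, and the highest for 3 (Herc6, Parp12 and Sp110), against 22% of genes. The WT LDL array enters the LDL response of WT, the genotype comparison with LDL and the difference of responses, so these share its values.

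**Figure D3:**
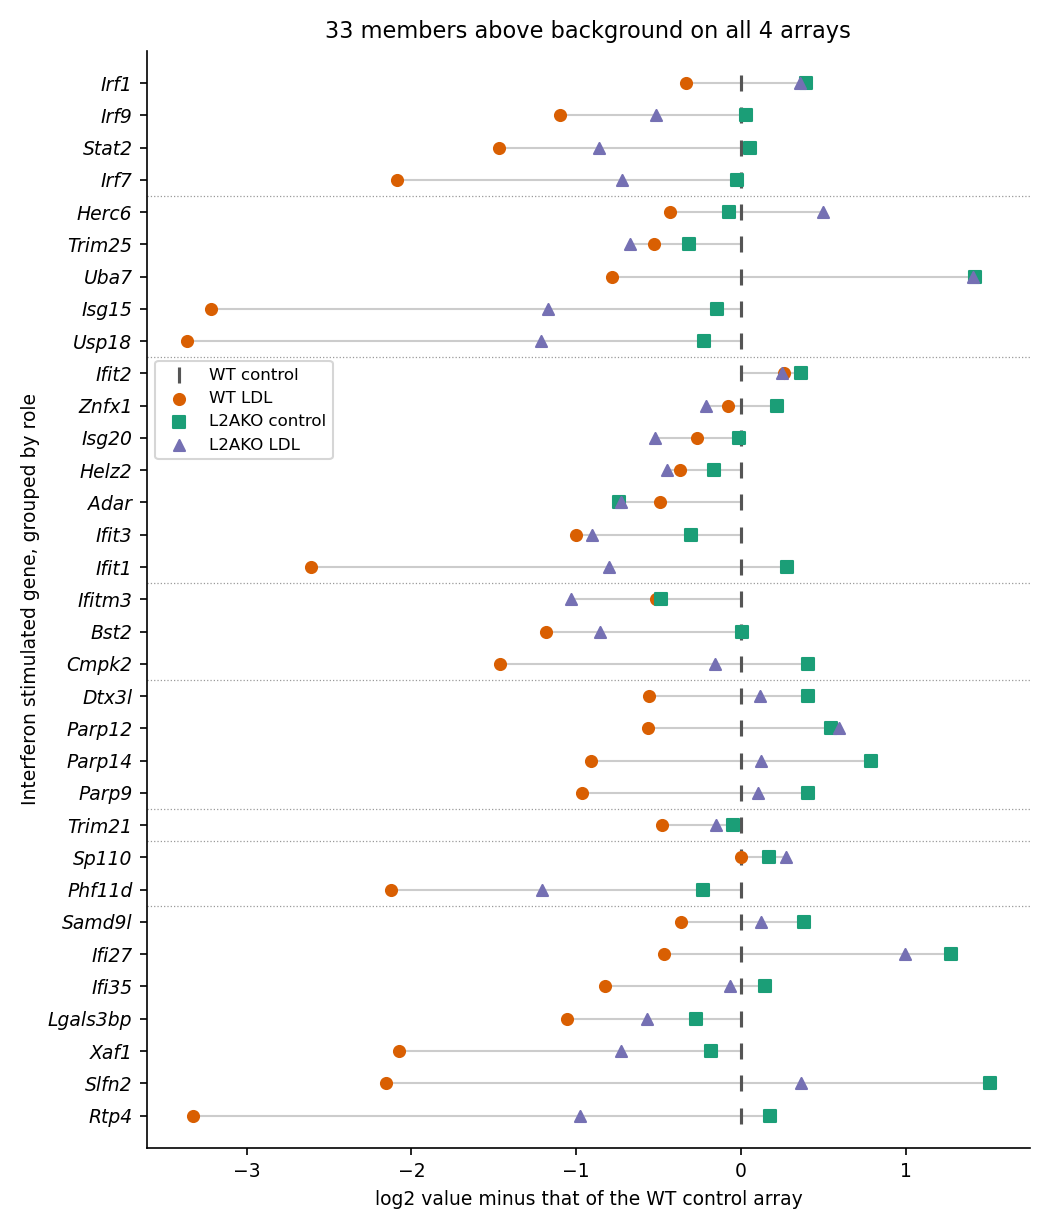
Log2 value of each of 33 members on the 4 arrays, minus its value on the WT control array (dark tick at 0), grouped by role from the regulators at the top. The WT LDL array (orange circle) is the lowest of the 4 for 25 members, and each point is 1 array without replicates.

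The regulators came first in the pathway. Irf7, the factor that amplifies interferon production, read -1.62 (WT control), -3.70 (WT LDL), -1.65 (L2AKO control) and -2.34 (L2AKO LDL). It was alike in both control arrays and lowest in WT LDL, 4.25-fold lower than in WT control. Stat2 read 3.84, 2.37, 3.89 and 2.98 in the same order of arrays. Irf9, which brings the complex to the ISRE, read 4.27, 3.17, 4.30 and 3.75. As for Irf7, WT LDL was the lowest and L2AKO LDL the next lowest array for both, with log2 responses to LDL of -1.47 and -1.10 in WT and -0.91 and -0.55 in L2AKO. Irf1, a factor also induced by interferon gamma, differed less, with values of 4.79, 4.46, 5.19 and 5.15 and a WT response of -0.34. A second Irf1 probe was below background on each of the 4 arrays.

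ISG15 is a ubiquitin-like protein that Uba7 activates, that Herc6 joins to other proteins in mice and that Usp18 removes from them. Isg15 read 3.21, -0.01, 3.06 and 2.04, again for WT control, WT LDL, L2AKO control and L2AKO LDL. Its second probe was below background in WT LDL only, and there the difference from WT control was at least 7.44-fold. Usp18 followed the same order with 0.87, -2.49, 0.64 and -0.35. For both genes the L2AKO LDL value lay between WT LDL and the control arrays, 4.13-fold above WT LDL for Isg15 and 4.43-fold for Usp18.

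The enzymes that attach ISG15 differed otherwise. Uba7 read 2.45, 1.67, 3.87 and 3.86, so it was 2.67-fold higher in L2AKO than in WT without LDL and 4.57-fold higher with it, and its LDL response in L2AKO was -0.01. Herc6 read -1.81, -2.24, -1.89 and -1.32 on one probe, with a log2 response of -0.43 in WT and 0.57 in L2AKO. The second Herc6 probe read -3.18, -3.02, -1.91 and -1.91 and gave responses of 0.16 and 0.01, so the lines had responses of opposite sign on the first probe, and close to each other on the second. Trim25, a ubiquitin ligase in RNA sensing, read 4.48, 3.95, 4.17 and 3.81 and was past 2-fold in no comparison.

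The IFIT proteins bind viral RNA or the translation machinery, and they responded unequally. Ifit1 read 1.22, -1.39, 1.50 and 0.42, and was 6.10-fold lower with LDL in WT. Ifit3 read 3.96, 2.96, 3.65 and 3.05, which placed WT and L2AKO close together with LDL (log2 difference 0.10). Ifit2 read 0.91, 1.18, 1.27 and 1.16, and its WT response, at 0.26, was the highest among the 33 members above background on both WT arrays. Ifit1 and Ifit3 hold an ISRE core in the promoters used here, and in Ifit2 the letters of the core were not in this window for either start.

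The other RNA effectors were mostly below 2-fold. Ddx60, a helicase that assists RNA sensors, was an exception. It was above background with LDL only, at -2.69 in WT and -4.97 in L2AKO. Its WT LDL value exceeded WT control by at least 2.92-fold. The lowest value above background was -5.08 on the L2AKO LDL array and -4.33 on L2AKO control, where Ddx60 read -5.49. No bound on the L2AKO response of Ddx60 could therefore be set. With LDL, Ddx60 was 4.87-fold lower in L2AKO (log2 difference -2.28). But this difference was -0.64 with normexp background correction and -0.82 in the values the authors deposited. Adar, which edits double-stranded RNA, read 1.60, 1.11, 0.87 and 0.88 on one probe and 1.36, 0.10, 1.57 and 1.23 on the other. The second of these was 2.40-fold lower with LDL in WT and the first 1.40-fold. Znfx1, Helz2 and the RNA exonuclease Isg20 had WT responses of -0.08, -0.37 and -0.27 and L2AKO responses of -0.43, -0.28 and -0.51.

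Genes that act at membranes or on nucleotides were all lower with LDL in WT where they could be measured. Bst2, which tethers budding virus to the cell, read 4.30, 3.11, 4.30 and 3.44, a 2.27-fold lower value in WT and a 1.82-fold lower value in L2AKO. Ifitm3, which blocks virus entry, was lower by the same amount in both lines, at -0.52 in WT and -0.55 in L2AKO. Cmpk2, a mitochondrial nucleotide kinase, read -2.66, -4.12, -2.25 and -2.82, and its second probe was above background in WT control only. Rsad2, whose product viperin makes a nucleotide that stops viral RNA synthesis, was above background in WT control only, at -3.38, and at least 2.02-fold lower in WT LDL.

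The PARP set modifies proteins with ADP-ribose, and Parp9 works as a pair with the ubiquitin ligase Dtx3l. Its 4 members had WT responses from -0.97 (Parp9) to -0.56 (Dtx3l), all under 2-fold. Parp9 read 2.12, 1.15, 2.53 and 2.22, and Parp12 read 0.45, -0.12, 0.99 and 1.04. Parp14 read 1.51, 0.60, 2.30 and 1.63. All 3 were highest on an L2AKO array and at least 2-fold higher in L2AKO than in WT with LDL, Parp12 by 2.23-fold, Parp9 by 2.10-fold and Parp14 by 2.04-fold. Dtx3l differed by 0.67 there on one probe and by 0.77 on the other.

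Among the TRIM proteins, Trim21, an antibody receptor inside the cell, had responses of -0.48 in WT and -0.11 in L2AKO. Trim30a was above background in L2AKO only, at -1.27 without and -1.89 with LDL, and was at least 7.81-fold and at least 5.70-fold higher than in WT. It has near copies in the genome, so its probe may also read these.

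Nuclear proteins gave unequal results. Phf11d, a zinc finger protein of a cluster of near copies, read 2.36, 0.24, 2.13 and 1.15 and was 4.35-fold lower with LDL in WT and 1.97-fold lower in L2AKO. Sp100, which builds nuclear bodies, was above background in L2AKO only, at -3.82 and -3.25. It was at least 1.19-fold higher than in WT without LDL and at least 2.23-fold higher with LDL. Sp110, its relative, had 3 probes, of which the brightest lay between 7.82 and 8.10 on all arrays. The next read -1.32, -2.42, 1.39 and 1.06, and was 6.53-fold higher in L2AKO without LDL and 11.2-fold higher with LDL.

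Of the remaining members, Rtp4, a chaperone of membrane receptors, read 2.75, -0.58, 2.92 and 1.77. Slfn2, a Schlafen protein, read -1.82, -3.97, -0.31 and -1.45, and so was 2.84-fold higher in L2AKO than in WT without LDL and 5.72-fold higher with LDL. Ifi27, a mitochondrial and nuclear membrane protein, read 5.89, 5.43, 7.17 and 6.89. It was higher in L2AKO by 2.42-fold without and 2.76-fold with LDL and was under 2-fold with LDL in either line.

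Xaf1, a partner of the apoptosis inhibitor XIAP, read 2.40, 0.32, 2.21 and 1.67 on its brighter probe. On the other it read -1.71, a value below background in WT LDL, 4.31 and 3.94, so the lines differed by 64.9-fold without LDL on this probe and by 1.14-fold, in the other direction, on the first. Lgals3bp, a secreted glycoprotein, read 4.75, 3.69, 4.47 and 4.18, and was 2.08-fold lower with LDL in WT. Its 2 probes gave L2AKO responses of -0.29 and -0.24.

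Ifi35 (-0.83 in WT, -0.21 in L2AKO) and Samd9l (-0.37 and -0.26) were lower with LDL by less than 2-fold. Ifi44 was above background in both controls, at -2.36 in WT and -4.13 in L2AKO, and was at least 4.12-fold lower with LDL in WT. Without LDL it was 3.43-fold lower in L2AKO (log2 difference -1.78), but the difference was -0.75 with normexp and -0.93 in the values the authors deposited. Epsti1 was above background in L2AKO control only, at -1.98, where it was at least 4.76-fold higher than in WT control and at least 8.54-fold higher than in L2AKO LDL.

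**Figure D4:**
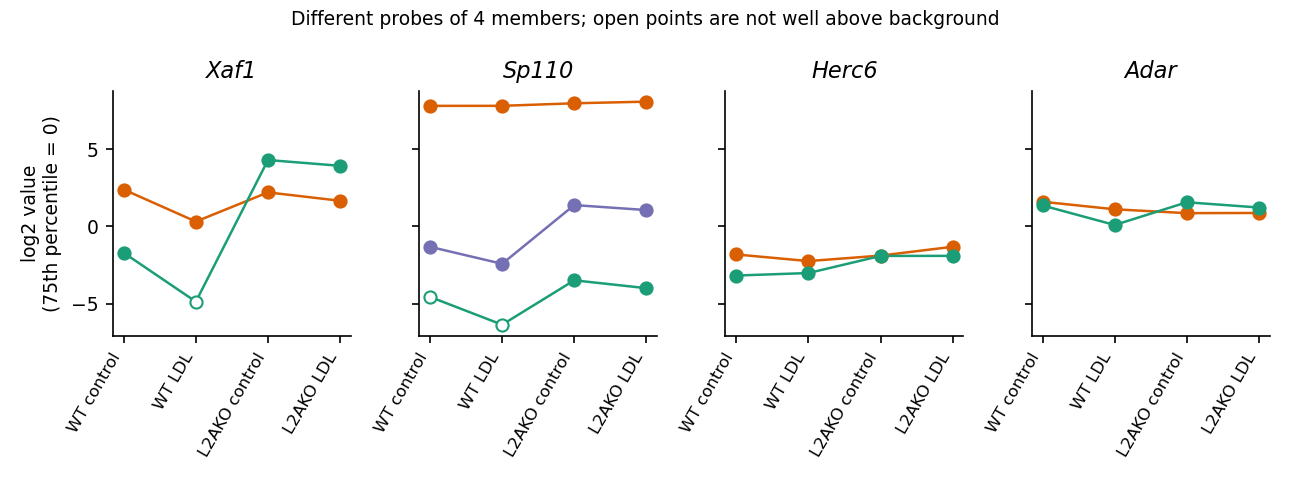
Log2 values of the different probes of Xaf1, Sp110, Herc6 and Adar on the 4 arrays, with the probe that stands for the gene in orange and open points where a probe was not well above background. Probes of Xaf1 and Sp110 differ in how far the L2AKO arrays lie above the WT arrays, by 6.20 and 2.54 log2 units without LDL.

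The genotypes were compared without LDL on 1 slide. Of 34 members, 3 were at least 2-fold higher in L2AKO (Slfn2, Uba7 and Ifi27) and 1 was at least 2-fold lower (Ifi44), against 7.56% and 8.21% of 12593 genes, a share near the background. At 1.5-fold 4 were higher and 2 lower, against 15.2% and 16.6%, and 15 lay below 0, against 51.1%. Their median was 0.04, against -0.01 over all genes. Probes that do not stand for their gene added Xaf1, Sp110 and Herc6 to those higher by 2-fold. Taking the mean over the probes of a gene, 5 of 34 members were at least 2-fold higher.

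With LDL, and across slides, 13 of 34 members were at least 2-fold higher in L2AKO and 1 (Ddx60) at least 2-fold lower, against 8.3% and 10.4% of 12934 genes. At 1.5-fold 19 were higher and 1 lower, against 16.9% and 20.5%, and 8 lay below 0, against 53.4%. The 13 were Slfn2, Rtp4, Uba7, Usp18, Isg15, Ifit1, Ifi27, Irf7, Xaf1, Cmpk2, Parp12, Parp9 and Parp14. With normexp and in the deposited values of the authors 10 of them were past 2-fold, without Irf7 (0.65 and 0.78), Cmpk2 (0.48 and 0.62) and Parp14 (0.91 and 0.92). The median was 0.68 against -0.05 over all genes. Slfn2, at 5.72-fold, and Rtp4, at 5.07-fold, were the highest of these members, each read by the probe that stands for its gene. On probes that do not stand for their gene, Xaf1 was at least 323-fold higher, Sp110 11.2-fold, Adar 2.19-fold and Herc6 2.17-fold. The probes standing for Sp110, Adar and Herc6 gave log2 differences of 0.27, -0.24 and 0.93.

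**Figure D5:**
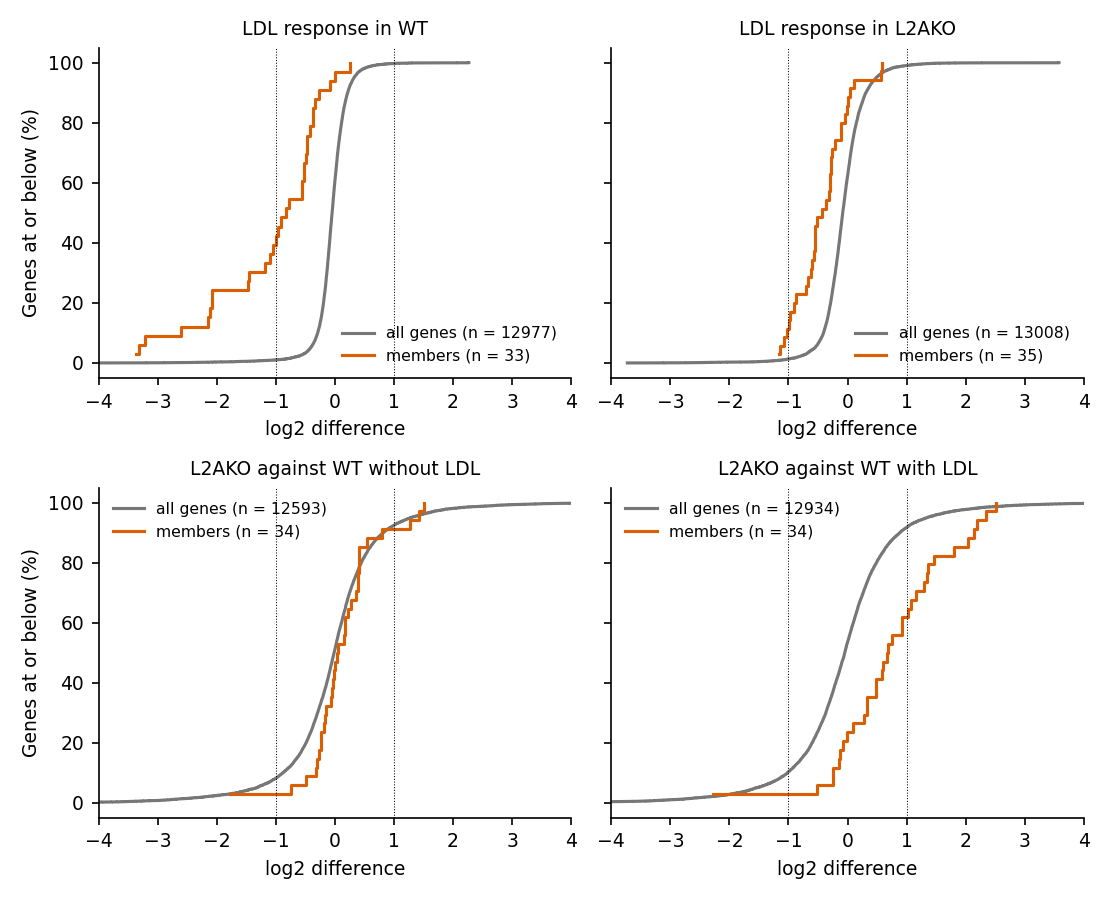
Share of genes (vertical, in percent) at or below a log2 difference (horizontal) in 4 comparisons, for members (orange) and all measured genes (grey), with dotted lines at 2-fold. Member curves lie to the left of all genes in the LDL response of WT, close to them between genotypes without LDL (medians 0.04 and -0.01), and to the right with LDL.

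The members with an ISRE core in their promoter were set beside those without one. Usp18, Rtp4, Parp9, Parp14, Ifi27, Mx1 and Mx2 had no promoter in the table and are in neither group, Usp18 and Rtp4 among the lowest in WT. With a core, 4 of 7 measured members were at least 2-fold lower with LDL in WT, with a median of -1.18 and a range from -3.22 to -0.48. Without one, 7 of 21 were, with a median of -0.56 and a range from -2.15 to 0.26. The ranges overlap, and with the looser letters GAAANNGAA, found in 14 of 34 members and 9.76% of genes, the medians were -0.76 and -0.67. Of all 12977 measured genes, 1.02% were at least 2-fold lower with LDL in WT. The share among all genes that hold a core is not given here, so these counts describe the members only.

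In WT the median LDL response of the receptor and kinase genes was -0.12, against -0.83 for the members, whereas in L2AKO the medians were -0.47 and -0.43. Receptor and kinase genes were above background on every array for 9 of 9 genes, and with LDL 0 of 9 were at least 2-fold different in either line. Counts of 0 in short lists are near the background here, since 0.247% of all genes were higher and 1.02% lower by 2-fold in WT, and 0.93% and 1.33% in L2AKO. Ifnar1 and Ifnar2, the chains of the receptor for interferon alpha and beta, had log2 responses of -0.13 and -0.26 in WT and -0.53 and -0.79 in L2AKO. The kinases Jak1 and Tyk2 had responses of -0.07 and 0.18 in WT. Ifngr1, a receptor chain for interferon gamma, was at -1.16 in L2AKO against WT with LDL and was the 1 gene of this list past 2-fold in any comparison.

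Interferon genes themselves were dim. Of 16 ligand genes with a probe, 9 were not above background on any array, Ifnb1 and Ifng among them, and between 4 and 7 were above it on an array. Ifna1, Ifna14, Ifnab and Ifnl3 were measured on all 4 arrays, from -2.21 to -3.98, with no LDL response of 2-fold in either line. Several interferon alpha genes are near copies of each other, so their probes may not tell them apart.

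Among transcription factors and kinases that relay the signal, 0 of 9 in WT and 0 of 10 in L2AKO were at least 2-fold different with LDL. Irf3 had responses of -0.11 in WT and -0.14 in L2AKO, and Tbk1, a kinase that activates it, 0.32 and 0.03. Of the negative regulators, 0 of 13 in WT and 0 of 12 in L2AKO were past 2-fold, again near those shares of all genes. Socs1, a feedback inhibitor of Janus kinases, was at -0.56 and -0.44, and Socs3 at -0.17 and -0.19.

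Markers of other cells were read beside the members' WT response. Of 6 measured macrophage and dendritic markers 1 was at least 2-fold lower with LDL, and this was Bst2, itself a member, with a list median of -0.19. The fibroblast list had 0 of 5 past 2-fold and a median of -0.24, and the smooth muscle list 0 of 6 and a median of -0.11. The endothelial median was -0.32, with 3 of 3 below 0, and the lymphocyte and NK median -0.09, also with 3 of 3 below 0. In L2AKO the macrophage and dendritic median was -0.25, with 1 of 7 higher by 2-fold (Siglech, 1.01). The endothelial median there was 0.25 and the lymphocyte and NK median 0.41. For the difference of responses, these 2 lists of 3 genes had medians of 0.63 and 0.60, beside 0.55 for the members. Between genotypes the macrophage and dendritic median was 0.06 without and 0.50 with LDL. The smooth muscle median was 0.62 without and 1.04 with LDL, with 2 of 6 and 4 of 7 higher in L2AKO by 2-fold. Acta2 and Smtn of this list went the other way, at -0.75 and -0.995 without LDL and at -0.66 each with it. The fibroblast median was -0.61 and -1.01. Of its 5 measured genes, 2 and 3 were lower by 2-fold, and 1, Pi16, was higher, at 4.14 and 4.85. The part of these markers in the members' differences was not tested.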

How the data were processed

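Each group was 1 array of pooled RNA, so no test between groups was run. The deposited scanner files hold a spot intensity made with Agilent Feature Extraction 10.7.3.1, with background subtracted, per the file headers. A table of values the authors deposited holds a linear signal, with column medians of 57.4 to 57.6, whose scaling between arrays and centring are unknown. The submitters' processing notes name oligo and RMA.

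Control spots and spots marked as outliers were left out, repeated spots were averaged on the log2 scale (55679 probes), and each array's 75th percentile was subtracted. A probe was named through its RefSeq accession in a gene table of GRCm38.p6, where 28330 probes matched and 27349 stayed unnamed. The probe with the highest mean stood for a gene, and a gene counted as measured where all arrays compared had it well above background. With 1 of 2 arrays above background, a bound was set from the bright value and, on the dim array, its own value or the lowest one there that was well above background, whichever was higher. Calls were made at 2-fold, with 1.5-fold as an alternative. Every member was described, in full where past 2-fold, a regulator, part of ISG15 conjugation or below background on some arrays. Members and lists were chosen with earlier results of these data known. Alternatives were 4 scalings, normexp (offset 50, on median spot signals) with quantile normalisation, the deposited values, 3 filters and the mean over probes. Data were simulated from the WT control array for the LDL response of WT (13286 genes). Of genes given a fold, 50 of 50 at 2.5-fold, 50 of 50 at 4-fold, 1 of 50 at 1.8-fold and 0 of 50 at 1.5-fold were called. The 2-fold limit largely sets these counts, so they check the calling only. Biological spread is unknown with 1 array per group, so they give no sensitivity for real differences. R 4.3.3, limma 3.58.1, Python 3.11.15, numpy 2.4.6, pandas 2.3.3 and matplotlib 3.10.9 were used.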

Additional observations from a re-analysis of the deposited data

Results flagged for a closer look

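The members here had effects of opposite sign in WT and L2AKO, or without and with LDL, each past the SD of repeated spots. That SD was taken within an array, over repeated probes well above background on every spot. It covers no difference between slides or cultures, so passing it does not settle a sign. With 1 array per group the contrast between the signs was not tested. With LDL, Herc6 differed by -0.43 in WT and 0.57 in L2AKO, and Ifit2 by 0.26 and -0.11. Between L2AKO and WT, Isg15 differed by -0.15 without LDL and 2.05 with it, and Usp18 by -0.23 and 2.15. Xaf1 stood at -0.18 and 1.35, Phf11d at -0.23 and 0.91, and Lgals3bp at -0.28 and 0.49. Ifit3 stood at -0.30 and 0.10, and Znfx1 at 0.22 and -0.13. With no scaling the values without LDL turned positive for Isg15 (0.14), Usp18 (0.06), Xaf1 (0.10), Phf11d (0.06) and Lgals3bp (0.01), so that the signs were no longer opposite. Likewise the L2AKO response of Ifit2 was 0.04 with no scaling, and Znfx1 with LDL was 0.10 with no scaling and 0.07 with median scaling. The second probe of Xaf1 gave 6.02 without LDL, and the mean over its probes 2.92. The second probe of Herc6 gave responses of 0.16 and 0.01. The second value of each genotype pair uses the L2AKO LDL array, which lay on its own slide, as does the L2AKO response.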

How the results depend on the processing

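The direction of the members' median was kept under every alternative run, and none of the named differences past 2-fold turned its sign. In WT, the median response to LDL was -0.61 with no scaling, -0.68 with normexp and -0.70 in the deposited values, and 1 member was higher by 2-fold where 1 array above background sufficed or no filter was set. In L2AKO it was -0.32 with median scaling, -0.33 with the percentile taken over probes above background on all arrays, -0.27 with no scaling, -0.34 with normexp and -0.51 with no filter. The count lower there was 2 with median scaling, with that percentile and in the deposited values, 0 with no scaling, 1 with normexp and 12 at 1.5-fold.

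Without LDL the median of L2AKO against WT was 0.13 with median scaling, 0.33 with no scaling, 0.15 with no filter and 0.16 with the mean over probes. The count lower was 0 with normexp, in the deposited values and where all 4 arrays had to be above background, and 2 at 1.5-fold, and the count higher was 5 where 1 array sufficed, 6 with no filter and 5 with the mean over probes. With LDL the median was 0.88 with median scaling, 0.91 with no scaling and 0.76 with no filter, and the count lower was 0 with normexp, in the deposited values and over all 4 arrays, and 2 with no filter. The median difference of responses was 0.66 with median scaling, 0.36 with normexp and 0.35 in the deposited values. There 2 members were lower where 1 array sufficed or no filter was set, and 15 were higher at 1.5-fold.

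Relative to all genes, the members' median in WT was -0.78, and -0.69 with normexp. Of the 13 members lower in WT, 10 to 13 were past 2-fold under each scaling, filter, normexp and the deposited values. No scaling moved the median of all genes by 0.22 in WT and 0.16 in L2AKO, and by 0.29 and 0.23 between genotypes without and with LDL, and median scaling moved it by 0.11 in L2AKO, 0.20 between genotypes with LDL and 0.11 in the difference of responses. The share of higher among all genes past 2-fold went from 19.4% to 42.6% in WT and from 47.9% to 68.9% between genotypes without LDL with no scaling, from 41.2% to 55.7% in L2AKO and from 65.9% to 79.1% in the difference of responses with median scaling, and from 44.45% to 60.05% between genotypes with LDL. The cause of these shifts was not tested. No paired analysis was possible because each group had 1 array. Signals near background limit Rsad2, Epsti1, Ifi44, Ddx60, Sp100 and Trim30a to bounds in some comparisons.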
